A study of Rattus norvegicus with 4 samples.

Results

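Laminin chains, nidogens and perlecan were examined in cultured peritubular myoid cells of the rat testis, with and without testosterone. The list named 10 genes: the laminin chains Lama1, Lama2, Lama4, Lama5, Lamb1, Lamb2 and Lamc1, the nidogens Nid1 and Nid2, and Hspg2, which encodes perlecan. A probe belonged to the set when its gene name in the scanner files was one of these symbols or an older symbol of one. This gave 19 probes for 9 genes, out of 41012 probes on the array, and no probe carried the name Hspg2. Lama4 was found under its older symbol RGD1560062 and the other 8 genes under their present symbols, some with a _predicted ending. All 9 genes passed the filter on dim probes.

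Peritubular myoid cells are the flat contractile cells around the seminiferous tubule, and with the Sertoli cells inside it they lay down the tubule's basement membrane. A laminin is a secreted trimer of an alpha, a beta and a gamma chain, so a cell needs a chain of each kind to secrete one. Nidogens bind the gamma 1 chain and link the laminin sheet to type IV collagen. Perlecan is a large heparan sulphate proteoglycan that joins this sheet and holds growth factors. Testosterone acts on peritubular cells through the androgen receptor.

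The cells came from rats 40 days old and were kept for 4 days in a medium with defined growth factors. The testosterone group was given 1e-07 M of the hormone in pulses and is represented by 2 arrays. The control group has 2 arrays as well. The labels carry the same treatment text for both groups, so what the control cells received in place of testosterone is not given. Whether replicates were separate animals or cultures is not given either, so p-values reflect array-to-array spread alone, and that may be technical. In a bulk culture, fewer cells of a type and less RNA per cell cannot be told apart.

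Each level below is a log2 processed signal relative to the array's own 75th percentile over non-control spots, so 0 stands for that percentile. Between 63.5% and 68.2% of non-control spots were well above background on an array, with precision limited by there being so few arrays. Of 12 peritubular and smooth muscle markers, Acta2 and Myh11 had no probe under those names and 7 of the other 10 were well above background on all 4 arrays. Desmin (Des) read 1.68 and 2.46 with testosterone and 1.72 and 2.15 in control, while the calponin gene Cnn1 was above background on no array. Markers of other cell types were also measured on all 4 arrays, with 6 of 7 fibroblast and interstitial genes, 7 of 7 macrophage and leukocyte genes, 8 of 11 Sertoli genes, 5 of 7 Leydig genes, 4 of 9 endothelial genes and 3 of 7 germ cell genes. Which cells of the culture made the laminin transcripts was not tested.

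The laminin chains measured in these cells covered every kind of chain. All 9 genes had at least 1 probe well above background on all 4 arrays, as did 18 of the 19 probes. They comprised the alpha chains Lama1, Lama2, Lama4 and Lama5, the beta chains Lamb1 and Lamb2, the gamma chain Lamc1 and both nidogens. The only Lamb2 probe, placed on chr16_random in rn4, was taken as Lamb2 by gene name alone. Of laminin chains outside the list, Lamb3 and Lamc3 were also measured on all 4 arrays, whereas the Lama3 probe was well above background on none. No probe of the 9 genes was saturated or flagged as an outlier on any array. Probes differ in how strongly they bind, so these levels do not rank the chains against each other.

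**Figure D1:**
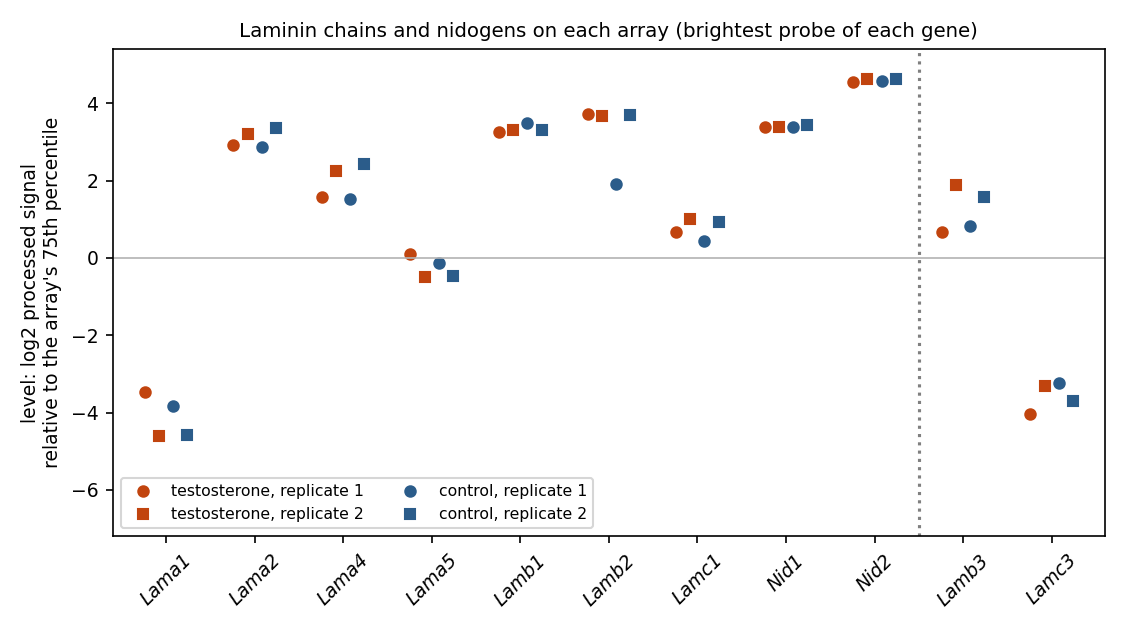
Level of the brightest probe of each laminin chain and nidogen on each of the 4 arrays, on the log2 scale relative to the array's 75th percentile, with Lamb3 and Lamc3, from outside the list, right of the dotted line. Within 6 of the 9 genes the arrays with the same symbol shape (the same replicate number) sit together, and the Lamb2 reading of control replicate 1 at 1.91 lies apart from the other 3 arrays at 3.66 to 3.72.

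Among the alpha chains, Lama2 encodes the chain of muscle and peripheral nerve basement membranes. Its brightest probe (rn4, chr1:18870086-18870145) read 2.92 and 3.20 with testosterone and 2.87 and 3.35 in control, for replicates 1 and 2. Both replicate 1 arrays were lower than both replicate 2 arrays, and the treatment groups overlapped. The means were 3.06 ± 0.20 and 3.11 ± 0.34 (SD, n = 2), a difference of -0.05 with a 95% interval from -0.74 to 0.64.

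Lama4, the alpha chain typical of vessels and mesenchymal cells, followed the same order of arrays. Its brightest probe (chr20:43255166-43255225) read 1.58 and 2.25 with testosterone and 1.52 and 2.43 in control. The replicate 1 arrays were the low ones again, by 0.67 with testosterone and 0.91 in control, and the treatment groups overlapped. The difference between treatments was -0.06 (-1.20 to 1.07).

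Lama5, a broadly expressed alpha chain of epithelial and vascular basement membranes, ran the other way. Its brightest probe (chr3:169234188-169234247) read 0.11 and -0.49 with testosterone and -0.12 and -0.46 in control. Here the replicate 1 arrays were the high ones, and the difference between treatments was 0.10 (-0.69 to 0.89). A second probe (chr3:169234489-169234642) gave -1.02 and -1.86 with testosterone and -0.79 and -1.65 in control, with the same order of replicates.

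Lama1, the alpha chain of early embryonic and some epithelial basement membranes including that of the seminiferous tubule, had 1 probe (chr9:106973476-106973535). It read -3.47 and -4.60 with testosterone and -3.82 and -4.57 in control. As for Lama5, both replicate 1 arrays were above both replicate 2 arrays. The difference was 0.16 with a wide interval from -1.16 to 1.48.

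Arrays with the same replicate number therefore read alike for several members. Both replicate 2 arrays lay above both replicate 1 arrays for 4 of the 9 genes (Lama2, Lama4, Lamc1 and Nid2), against 38.4% of the 22024 genes tested. They lay below for 2 of 9 (Lama1 and Lama5), against 24.9% of all genes. Both counts lie near the background, so this order of arrays was not particular to these genes. Some marker levels differed by number as well. The summed signal of the 7 germ cell markers, in multiples of the 75th percentile, was 0.508 and 0.442 on the replicate 1 arrays and 5.86 and 5.93 on the replicate 2 arrays, testosterone first. It was also higher on both replicate 2 arrays for the 9 endothelial markers (1.14 and 1.35 against 1.65 and 2.23), the 7 Leydig markers (94.1 and 101 against 121 and 105) and the 7 fibroblast and interstitial markers (494 and 486 against 640 and 583). Of the fibroblast markers 3 (Col1a1, Col3a1 and Dcn) were saturated on at least 1 array. For the 7 macrophage and leukocyte markers the sum was lower on the replicate 2 arrays (154 and 173 against 124 and 129). Single genes of that list went both ways, with 4 below, including the bright Cd68 and Tyrobp, and 3 above (Adgre1, Aif1 and Cd163). Among the 7 Leydig markers 5 were below and 1 above, against the direction of their sum. Of the 9 endothelial markers 5 were above and 2 below (Vwf and Tie1), and of the 7 germ cell markers 5 were above and 1 below (Acrv1). Some of these orders rest on dim genes. Acrv1 was well above background on no array, Tie1 on 1, and Pecam1, Emcn, Sycp3, Prm2 and the Leydig marker Hsd17b3 on 2 each. The sums of the 11 Sertoli markers (21.7 and 23.3 against 21.8 and 22.6) and the 10 peritubular markers (60.7 and 71.2 against 69.3 and 79.3) overlapped between the numbers. Single genes mostly did not, with 5 Sertoli markers above and 3 below, and 6 peritubular markers above and 3 below. Myl9, the brightest peritubular marker, overlapped. These counts include dim genes, with Cnn1 well above background on no array, Fshr on 1 and Synpo2 on 2. Among defining markers, Acrv1, Tek, Lhcgr, Thy1 and Wt1 were above background on no array. The part of these cells in the laminin values was not tested.

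The stretches of 250 bases before the annotated start of Lama2 and Lama4 are shown because these alpha chains ran in the same order over the arrays, and that of Lamc1 because it is the gamma chain shared by most laminins. They are from RefSeq on build GRCr8, where 8 of the 10 genes had an entry, and are written 5′ to 3′ on the gene's strand. Capitals mark matches on either strand to AGAACA, the core letters bound by androgen and glucocorticoid receptors, to GGGCGG, the GC box, and to TATAAA, the TATA box.
Lama2 (chr1:19491896-19492145, plus strand): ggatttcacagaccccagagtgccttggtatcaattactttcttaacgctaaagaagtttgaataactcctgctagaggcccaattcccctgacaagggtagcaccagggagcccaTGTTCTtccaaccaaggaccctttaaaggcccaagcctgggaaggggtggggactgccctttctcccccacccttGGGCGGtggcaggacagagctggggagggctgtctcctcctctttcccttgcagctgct
Lama4 (chr20:43946648-43946897, plus strand): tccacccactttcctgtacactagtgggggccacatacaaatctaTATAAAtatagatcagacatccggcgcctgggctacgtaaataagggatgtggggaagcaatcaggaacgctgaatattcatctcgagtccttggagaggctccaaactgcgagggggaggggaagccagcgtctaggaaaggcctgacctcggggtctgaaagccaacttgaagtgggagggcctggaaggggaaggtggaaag
Lamc1 (chr13:68051987-68052236, minus strand): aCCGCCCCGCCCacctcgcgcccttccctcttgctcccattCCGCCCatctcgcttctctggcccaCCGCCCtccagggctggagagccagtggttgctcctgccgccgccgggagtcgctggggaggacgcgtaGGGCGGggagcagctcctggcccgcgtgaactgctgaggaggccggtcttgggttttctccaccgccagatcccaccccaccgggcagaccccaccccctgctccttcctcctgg
The Lama2 stretch held 1 AGAACA match, in reverse as TGTTCT, that began 134 bases before the start, and 1 GC box. The Lama4 stretch held 1 TATAAA match and neither of the others, and that of Lamc1 held 5 GC boxes, of which the first 2 overlap by 1 base. Over the 8 entries, 1 held AGAACA, 6 held GGGCGG and 1 held TATAAA, against 17.5%, 30.5% and 12.9% of 33469 promoter stretches of the same length. The full androgen response element, AGAACA and TGTTCT spaced by 3 bases, which contains the shorter match, was in 0 of the 8 and in 0.012% of all. The GC content of the 8 stretches ran from 44.8% (Lama1) to 72.8% (Lama5), and only Lama1 lay below the median of 51.2% over all stretches. Whether GC content accounts for the number of GC boxes was not tested. A match is a description of the letters and says nothing about binding.

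The beta chains were represented by 1 probe each, both in the array's right-hand columns 57 to 85. Lamb1, the widespread beta chain, was measured by a probe over chr6:49178140-49179911 and read 3.27 and 3.32 with testosterone and 3.48 and 3.32 in control. The readings of both replicate 2 arrays rounded to the same value, so the groups lay apart by a margin smaller than the rounding. The means were 3.30 ± 0.04 and 3.40 ± 0.11 (SD, n = 2) and the difference was -0.11 (-0.61 to 0.39).

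Lamb2, the beta chain of the neuromuscular junction, kidney filter and vessel walls, had the largest difference of the set. Its probe (rn4 chr16_random:1230338-1230397) was taken as Lamb2 by gene name alone, without a check of its position. It read 3.72 and 3.66 with testosterone, 1.91 on control replicate 1 and 3.69 on control replicate 2. The other 3 arrays thus lay close together, and control replicate 1 lay at -1.76 relative to the lowest of them. The means of 3.69 ± 0.04 and 2.80 ± 1.26 (SD, n = 2) gave a difference of 0.89 (95% interval -0.79 to 2.57; adjusted p 1.00 in limma). Without control replicate 1 the difference was 0.00, and without control replicate 2 it was 1.78.

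The Lamb2 probe was printed in column 85, in an area where many spots read low on control replicate 1. Of 39 neighbouring spots within 5 rows and 5 columns that were well above background on the other 3 arrays, 10 (25.6%) were more than 1 lower there, on the log2 scale, than on every other array. The same held for 4.36% of such spots in columns 57 to 85 and for 0.159% in columns 1 to 56. Of the 19 probes 8 lay in columns 57 to 85, and so did the probe that stands for the gene in 4 of the 9 genes, against 33.9% of all genes tested. Most of these had few low neighbours. The counts were 0 for the probes of Lama1, Lama5 and Lamc1 and 1 for those of Lama2, Lamb1 and Nid2. A dim Nid1 probe had 7 of 45. Whether the spot of Lamb2 read low for the same reason as its neighbours was not tested.

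**Figure D2:**
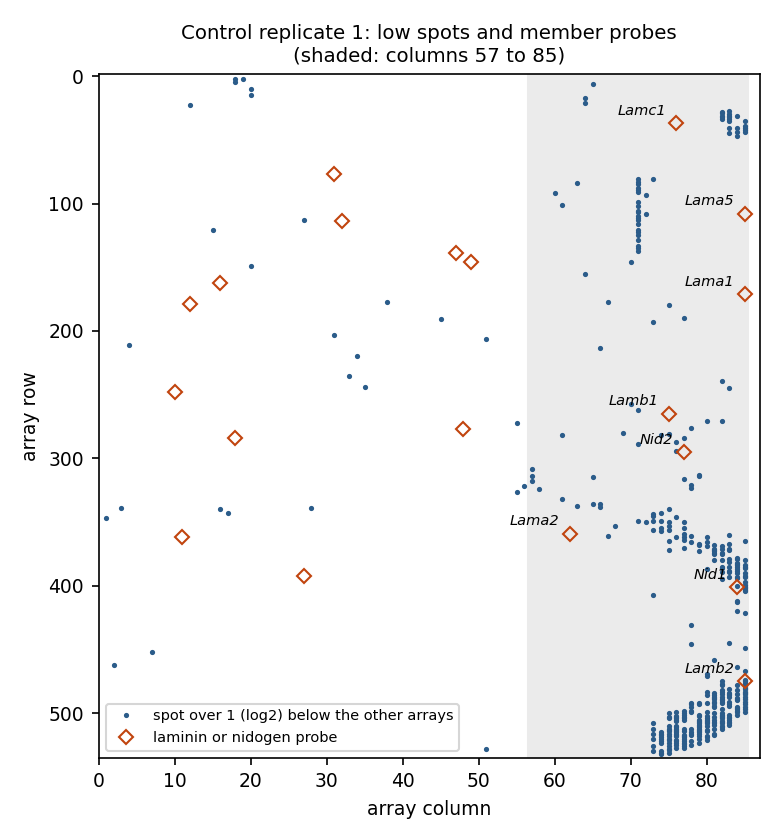
Position on the array of spots that read more than 1 lower (log2) on control replicate 1 than on every other array (blue), with the 19 laminin and nidogen probes (open diamonds, named in columns 57 to 85). The Lamb2 probe lies at the edge of a dense group of low spots at the lower right, where 10 of its 39 neighbours were low.

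Lamc1, the gamma chain of most laminins, read 0.68 and 1.02 with testosterone and 0.43 and 0.92 in control with its brightest probe (chr13:68243126-68243185). Replicate 1 arrays were lower in both groups and the groups overlapped. The difference was 0.18 (-0.54 to 0.90). Its second probe (chr13:68251375-68252423), fitted with every probe as its own row, differed by -0.02 (-0.64 to 0.59).

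The brightest probes of both nidogens spanned about 0.1 or less over the 4 arrays. Nid1 read 3.39 on both testosterone arrays and 3.40 and 3.45 in control with its brightest probe (chr17:66858545-66859398). The control arrays were both higher, by less than 0.1, and the difference was -0.04 (-0.52 to 0.44), which on the linear scale allows a ratio between 0.698 and 1.36. Nid2, measured by 1 probe (chr15:4801457-4801516), read 4.54 and 4.64 with testosterone and 4.59 and 4.64 in control. Its groups overlapped and the difference was -0.03 (-0.51 to 0.46).

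Perlecan could not be followed under its symbol. A pair of probes that the files describe as perlecan fragments, noted after their values were seen, were well above background on all 4 arrays. The first (chr5:156266022-156266341) read -2.37 and -1.81 with testosterone and -2.28 and -2.04 in control. The other (chr5:156326271-156326429) read -0.30 and -0.20 with testosterone and -0.49 and 0.10 in control. Both had overlapping groups, and their differences were 0.07 (-0.66 to 0.80) and -0.05 (-0.77 to 0.66) when every probe was fitted as its own row.

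For 4 of the 5 genes with more than 1 probe (Lama2, Lama4, Lama5 and Nid1), the probes of one gene read far apart. On average over the arrays the 4 Lama2 probes read -1.24, -1.15, -2.29 and 3.08 in their order from the 5′ to the 3′ end of the gene. The 3 Lama4 probes averaged -3.75, -1.92 and 1.94, and those of Lama5 -5.06, -1.33 and -0.24. The pair of Lamc1 probes averaged 0.44 and 0.76, a gap of 0.33 that was smaller than the range of its brightest probe over the arrays, 0.43 to 1.02. For Lama2, Lama4, Lama5 and Lamc1, whose probe strand was that of RefSeq, the brightest probe was the most 3′ one in 4 of 4. Outside the list this held for Lamb3 and not for Lamc3, whose probes averaged -3.58 and -4.25 from the 5′ end. Per the labels' protocols the RNA was copied from an oligo-dT primer, which starts at the 3′ end, and whether this sets the order was not tested. Nid1 probes lay on the opposite strand to the RefSeq entry, on another build, so their order was not read. The Nid1 probes averaged -2.90 and -2.75 near one end and 3.41 at the other.

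**Figure D3:**
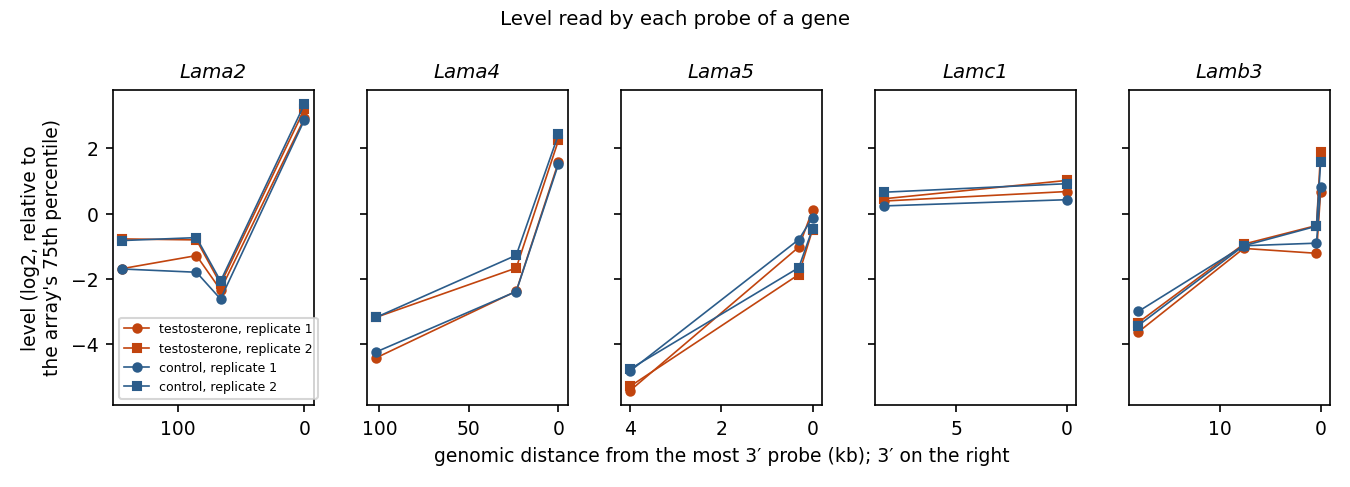
Level read by each probe of a gene with several probes, on each array, against its genomic distance from the most 3′ probe in kilobases (3′ on the right; the scale differs between genes). In Lama2, Lama4, Lama5, Lamc1 and, outside the list, Lamb3, the most 3′ probe read highest on average; Lamc3, not drawn, went the other way. The averages of the Lamc1 probes differed by 0.33, whereas those of the brightest and dimmest probes of the other 4 genes differed by 4.59 to 5.69.

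The probes of one gene did not all give the same difference between treatments. Lama2 probes ranged from -0.05 to 0.23, with both signs, and those of Lama4 from -0.19 to -0.06, all negative. Nid1 probes ranged from -0.09 to 0.12, also with both signs. The dimmest Lama5 probe (chr3:169238178-169238316) read -5.41 and -5.28 with testosterone and -4.81 and -4.75 in control. The testosterone arrays were both lower, but the probe was not well above background on testosterone replicate 1. It passed the filter on dim probes only through the control arrays, which favours a lower reading with testosterone. Its difference of -0.57 is therefore a description, given without an interval or p-value. The brighter Lama5 probes differed by 0.10 and -0.22.

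None of the 9 genes passed the test between testosterone and control. In limma 0 of 9 were called higher and 0 lower at an adjusted p under 0.05, against 0% of the 22024 genes tested in each direction. At an unadjusted p under 0.05 there were 0 of 9, against 0.799% of all genes, and the smallest unadjusted p was that of Lamb2 at 0.222. Of the 9 differences 4 were positive and 5 negative, with a median of -0.03, against -0.01 over all genes. The testosterone arrays both lay above both control arrays for 0 of 9 genes (6.08% of all genes) and below them for 2 of 9, Lamb1 and Nid1 (9.13% of all genes), each by a small margin. The smallest 2-sided p open to an exact permutation test of 2 against 2 arrays is 0.333, and single genes were not tested that way.

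The intervals say how large a change could have been missed. The distance from a difference to either bound ran from 0.48 for Nid1 to 1.32 for Lama1, and that of Lamb2 was larger. Its median was 0.72 over the 9 genes and 0.64 over all genes tested. For Lama2 the interval allows a ratio between 0.597 and 1.56, and for Lama4 between 0.437 and 2.10. The absence of calls does not show that the genes were unaffected.

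**Figure D4:**
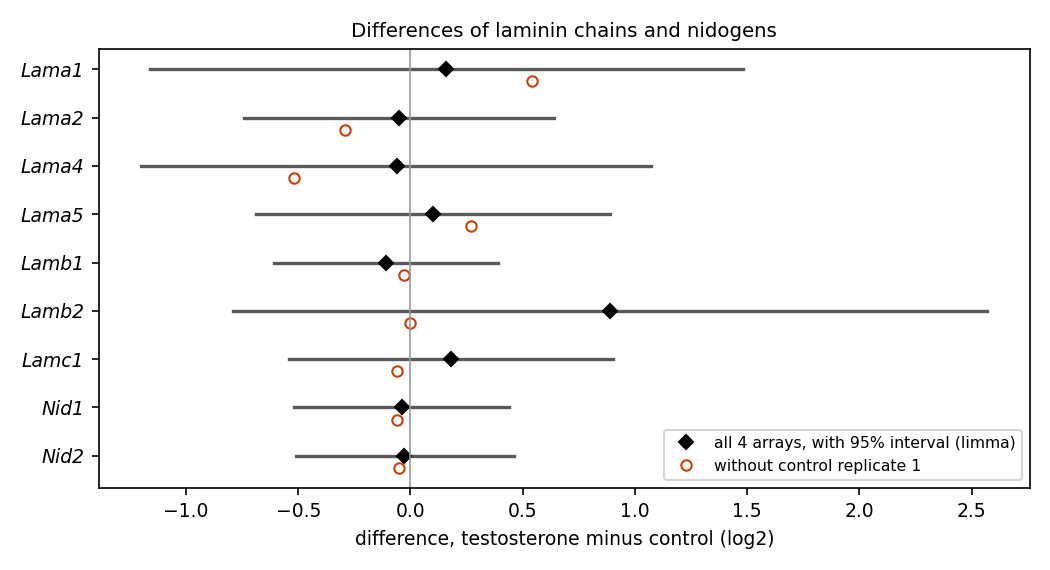
Difference between testosterone and control for the 9 genes on the log2 scale, with 95% intervals from limma over all 4 arrays (diamonds and bars) and the difference without control replicate 1 (open circles). Every interval includes 0, and the Lamb2 difference of 0.89 became 0.00 without that array.

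The other genes around the laminin network were taken from lists of 68 genes, of which 53 were tested. In limma 0 of them were called higher and 0 lower, and 0 had an unadjusted p under 0.05. Positive differences were found for 27 and negative ones for 26, with a median of 0.01. Probes of 5 genes were saturated on all 4 arrays, and without them 24 differences were positive and 24 negative. The testosterone arrays were both higher for 5 and both lower for 5, which is 9.43% of the 53 in each direction. Over all genes tested the shares were 6.08% higher and 9.13% lower.

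For Lamb3 and Lamc3, laminin chains outside the list, the groups overlapped. Lamb3, the beta chain of epidermal laminin, read 0.68 and 1.89 with testosterone and 0.83 and 1.58 in control, with replicate 1 low in both groups. Its difference was 0.08 (-1.29 to 1.45). Lamc3, a gamma chain, differed by -0.22 (-1.14 to 0.70).

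Of the laminin receptors, 10 of 14 were tested, 4 with positive and 6 with negative differences, where the dystroglycan gene Dag1, among the positive ones, was saturated on all 4 arrays. Sgca, a sarcoglycan of the dystroglycan complex, differed by 0.38 (-0.30 to 1.07), and Itga7, a muscle laminin integrin, by 0.13 (-1.82 to 2.08). Bcam, a receptor for the alpha 5 chain, differed by -0.34 (-0.89 to 0.21), and Itgb4, the hemidesmosome integrin, by -0.24 (-1.31 to 0.84). All 4 had an adjusted p of 1.00 in limma.

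Other basement membrane components had 14 tested genes of 23, with 6 positive and 8 negative differences and a median of -0.07. Col4a4, a chain of type IV collagen, differed by 0.35 (-0.53 to 1.24), and Frem2, a component of epithelial basement membranes, by 0.20 (-0.28 to 0.69). Col18a1, the source of endostatin, differed by -0.23 (-1.79 to 1.32) and Ntn4, a netrin that binds laminin, by -0.20.

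Enzymes that assemble or modify matrix proteins had 16 tested genes, 10 positive and 6 negative. Plod2, a collagen lysyl hydroxylase, differed by 0.22 (-0.32 to 0.75). Loxl2, a lysyl oxidase that crosslinks type IV collagen, differed by 0.21 (-1.85 to 2.26). Pomt2 and Pomt1, which start the laminin-binding sugar of dystroglycan, differed by -0.34 (-0.93 to 0.24) and -0.20 (-0.75 to 0.35). Of the 10 tested degrading enzymes, Mmp2, Mmp14, Ctsl and Ctsb were saturated on all 4 arrays and are given no difference. The other 6 had 3 positive and 3 negative differences. They ran from -0.09 for Bmp1, a protease that cuts procollagen and laminin chains, to 0.20 for the metalloproteinase Mmp3, with Adamts1 at 0.17.

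The genes whose profile over the 4 arrays was nearest to the mean of the 5 members outside columns 57 to 85 were Ahcyl2, Ddx3x and Arid4b. The distances between their centred log2 profiles and that mean were 0.0181, 0.026 and 0.0291, out of 6811 genes compared. With 4 arrays many genes come this close, and the ranking is only a description.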

How the data were processed

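Total RNA was labelled with Cy3 and hybridised to 4 one-colour Agilent arrays, 1 slide and 1 scan, so slide and scan could not be tested. Per the file headers the deposited processed signal, mean signal and local background are intensities on a linear scale from Feature Extraction 11.5.1.1, with probe positions on build rn4; version 10.5 stands in the submitters' processing notes. The authors' deposited table holds log2 values equal to the log2 processed signal minus 1 constant per array (column medians -3.61, -3.34, -3.62 and -3.45 for testosterone 1 and 2 and control 1 and 2), so scale, centring and direction are known.

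Here log2 processed signals were set against each array's 75th percentile, control and outlier-flagged spots were left out, and spots of a probe were averaged. Probes well above background on both arrays of a group were tested (25897 probes), and the brightest stood for each gene (22024). Differences were fitted by lmFit and eBayes of limma 3.58.1 (R 4.3.3), with 2-sided p-values adjusted by Benjamini-Hochberg over all genes. The script was tested on simulated data. Probes were named through accession, symbol or older symbol in the GRCr8 gene table, and 21385 of 41012 kept the file's name. Named genes are every member, other laminin chains, and per list the 2 largest differences in each direction; some items under this rule are not reported here. Members and lists were chosen with earlier results of these data known; the neighbour window and the perlecan probes were chosen after seeing values.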

Additional observations from a re-analysis of the deposited data

How the results depend on the processing

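With all 4 arrays kept, limma called 0 members, 0 of the other listed genes and 0 genes in all under every alternative run. The replicate block also called 0 members at an adjusted p under 0.05, with 0 members and 618 genes at an unadjusted p under 0.05. Arrays sharing a number deviated together (r = 0.471 over genes, a description), but the labels do not say that a number marks a shared culture, so the block was not the reported fit. Members with both testosterone arrays lower numbered 2 as reported, 1 with normexp and quantile normalization, with the mean over probes and without columns 57 to 85, and 0 with median scaling. Leaving out 1 array gave 2 to 4 of them lower and 0 to 4 higher, 0 to 35 genes called in all (35 without control replicate 2) and 0 members called, taking the single array left to have the spread of the other group. The share of all genes with groups apart is given for the reported fit only. Groups also come apart more easily with 1 array against 2 than with 2 against 2. The counts of members higher or lower under the alternatives therefore have no background and are descriptions. Without columns 57 to 85, 5 members had a probe well above background on all 4 arrays in place of 9. Differences turned sign for Lama2 (0.07) and Lama5 (-0.23) with the mean over probes and for Nid2 (0.01) with normexp and quantile normalization. The cause was not tested. With 1 array left out, differences ran from -0.41 to 0.73 for Lama1, -0.29 to 0.18 for Lama2, -0.52 to 0.39 for Lama4, -0.20 to 0.40 for Lama5, -0.06 to 0.42 for Lamc1 and -0.08 to 0.02 for Nid2. Those of Lamb1 (-0.19 to -0.03) and Nid1 (-0.06 to -0.01) kept their sign. That of Lamb2 ran from 0.00 without control replicate 1 to 1.78 without control replicate 2. Slide or scan as a block was not run, as there was 1 of each. The dimmest Lama5 probe was not well above background on testosterone replicate 1, so its level there is near the limit of the signal.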
